A study of Mus musculus with 4 samples.

Results

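Transcripts of 7 receptors that deliver costimulatory signals to lymphocytes were followed through the immune cells of B16F10-OVA melanomas. They are the TNF receptor family members Tnfrsf4, Tnfrsf9, Tnfrsf18, Tnfrsf1b and Cd27 and the CD28 family members Icos and Cd28, chosen by symbol from the 27998 genes in the count tables. All 7 had UMIs (unique molecular identifiers, each counting 1 captured RNA molecule) in each of 5 lymphocyte classes. The classes were CD8 T cells, conventional CD4 T cells, regulatory T cells, unconventional T cells and natural killer (NK) cells.

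The cells came from 4 groups. These were miR-155 TCKO mice at day 9, wild-type (WT) C57BL/6 mice at day 9, miR-155 TCKO mice at day 12 and WT mice at day 12, where TCKO stands for a T cell conditional knockout. Every mouse carried a subcutaneous tumour grown from 1000000 B16F10 melanoma cells that express the model antigen ovalbumin. Tumours of more than 4 mice were pooled in each group, live CD45-positive cells were sorted, and 1 droplet library was made per group, so mice cannot be told apart and no group has replicates. The driver of the T cell deletion and the age of the mice are not given in the sources used here. With 1 library per group, a difference between groups and a difference between libraries cannot be told apart.

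A T cell that meets its antigen through the T cell receptor needs a second, costimulatory signal. CD28 is present on resting T cells and binds CD80 and CD86 on antigen-presenting cells, while ICOS, its relative, is induced by activation and binds ICOS ligand. OX40 (encoded by Tnfrsf4), 4-1BB (Tnfrsf9) and GITR (Tnfrsf18) are induced on activated T cells, TNF receptor 2 (Tnfrsf1b) binds TNF, and CD27 is carried by naive cells and binds CD70. The TNF receptors recruit TRAF adaptors and activate NF-kB, and several of them are known for high levels on regulatory T cells. MiR-155 is a microRNA induced in activated T cells and NK cells.

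The deleted microRNA is shown with its seed (bases 2 to 8) in capitals, since the seed sets which 3′ UTRs it can pair with. It lies on chr16:84714143-84714165 (GRCm38.p6, plus strand) in RefSeq.
mmu-miR-155-5p: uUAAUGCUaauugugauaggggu
The longest annotated 3′ UTRs of the 7 genes held 0 matches to this seed of 7 or 8 bases, against 2739 of 20791 genes (13.2%) with at least 1. These UTRs were 180 to 3574 bases long, shortest in Tnfrsf4 and longest in Cd28.

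Tnfrsf4 and Tnfrsf18 are neighbours on chromosome 4 (starts at 156013843 and 156026164 in mm10), Tnfrsf9 and Tnfrsf1b lie on the same chromosome, Icos and Cd28 are neighbours on chromosome 1, and Cd27 is on chromosome 6. RefSeq promoter windows of 300 bases (250 before and 50 after the start) matched 5 of the 7 genes. The windows of the 3 TNF receptor genes that stood highest in regulatory T cells are shown with matches to an NF-kB motif (GGG and CC with any 5 bases between them, on either strand) in capitals (GRCm38.p6).
Tnfrsf9, second start, chr4:150927749-150928048, plus strand: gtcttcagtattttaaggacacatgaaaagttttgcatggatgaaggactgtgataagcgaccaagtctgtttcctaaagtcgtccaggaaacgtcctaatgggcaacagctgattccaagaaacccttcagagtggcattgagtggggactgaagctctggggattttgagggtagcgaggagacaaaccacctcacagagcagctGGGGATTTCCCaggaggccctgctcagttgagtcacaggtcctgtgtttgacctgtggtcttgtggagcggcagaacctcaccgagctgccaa
Tnfrsf4, chr4:156013445-156013744, plus strand: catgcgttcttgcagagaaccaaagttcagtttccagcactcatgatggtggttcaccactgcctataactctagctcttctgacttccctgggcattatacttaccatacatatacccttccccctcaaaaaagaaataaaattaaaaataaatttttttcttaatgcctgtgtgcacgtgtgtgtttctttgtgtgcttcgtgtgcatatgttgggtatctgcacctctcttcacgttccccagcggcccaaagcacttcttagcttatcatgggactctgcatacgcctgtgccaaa
Tnfrsf18, chr4:156026072-156026371, plus strand: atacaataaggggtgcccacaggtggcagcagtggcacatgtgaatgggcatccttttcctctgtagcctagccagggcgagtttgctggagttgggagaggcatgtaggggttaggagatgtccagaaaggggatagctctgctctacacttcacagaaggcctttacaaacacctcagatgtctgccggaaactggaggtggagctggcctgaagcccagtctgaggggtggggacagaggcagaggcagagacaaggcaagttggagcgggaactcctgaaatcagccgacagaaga
The second Tnfrsf9 window held 2 overlapping matches from base -43 relative to the start and 1 AP-1 motif (TGANTCA) at -15, and an NFAT core (GGAAA) on the other strand overlapped the NF-kB match. The first Tnfrsf9 window, at chr4:150919905-150920204, held 0 matches to the NF-kB and AP-1 motifs. The Tnfrsf4 and Tnfrsf18 windows held 0 matches to the NF-kB motif, that of Tnfrsf1b 3 and that of Cd27 2, with overlapping matches counted. It was found in 50.8% of 32851 promoter windows of this length the AP-1 motif in 7.81% and the NFAT core in 61.3%, so these matches are a description of the letters and not of binding.

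The 4 libraries held 11270 barcodes with a median of 7379 to 9655 UMIs, and 66 barcode sequences occurred in 2 libraries. Of 10942 cells kept, 3046 fell into the 5 classes by gates on marker genes that are no members of the receptor list. In the order TCKO day 9, WT day 9, TCKO day 12 and WT day 12, the CD8 class held 332, 649, 53 and 220 cells, the conventional CD4 class 31, 28, 14 and 34, the regulatory class 14, 22, 16 and 34, the unconventional class 225, 93, 80 and 119, and the NK class 232, 169, 249 and 432. CD8 T cells of WT day 9 were deeper than the others, with a median of 11911 UMIs against 4912 in TCKO day 9, 4354 in TCKO day 12 and 4671.5 in WT day 12. Mir155hg, the host gene of miR-155, had 0 UMIs in all 4 T cell classes of both TCKO libraries, against 82 and 15 UMIs in WT CD8 T cells at day 9 and day 12. NK cells held 3 UMIs in TCKO and 5 in WT at day 9, and 12 in TCKO and 11 in WT at day 12. The counted 3′ tag can lie outside the deleted part of the gene. Regulatory T cells carried Foxp3, their defining transcription factor, at 299 to 339 CPM (UMIs per 1000000 UMIs of the class) in the 4 libraries. The 9 macrophage markers summed to 65.4 to 88.5 CPM in the 5 classes of WT day 9 and to 257 to 528 CPM in those of the other libraries, against 29081 to 34009 CPM in macrophages, and the part of such free RNA in the results was not tested.

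Regulatory T cells stood above the other 4 classes, with no overlap between libraries, in 5 of the 7 receptors: Tnfrsf4, Tnfrsf9, Tnfrsf18, Tnfrsf1b and Icos. Relative to CD8 T cells, these 5 rose, by between 2.24 and 4.81 on the log2 scale, while Cd28 and Cd27 did not pass the test. The comparison took the UMI sums of both classes in each of the 4 libraries, with the library as a block (edgeR quasi-likelihood test, Benjamini-Hochberg adjustment over 3741 genes). Of all genes tested, 8.71% were called in either direction and 4.57% higher in regulatory T cells, against 5 of 7 receptors. The median log2 fold change was 2.37 over the receptors and -0.01 over all genes.

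Tnfrsf4, which encodes OX40, stood at 4265 CPM in TCKO and 2178 CPM in WT regulatory T cells at day 9, and at 1087 CPM in TCKO and 1689.6 CPM in WT at day 12. CD8 T cells had 71.7 CPM in TCKO and 125 CPM in WT at day 9, and 3.40 CPM in TCKO and 80.0 CPM in WT at day 12. The TCKO day 12 value rests on 1 UMI. The 4 regulatory values lay above the 4 CD8 values without overlap, and edgeR gave a log2 fold change of 4.81 ± 0.38 (SE, adjusted p = 6.75e-05). A UMI of Tnfrsf4 was found in 13 of 14 TCKO and 22 of 22 WT regulatory T cells at day 9, and in 12 of 16 TCKO and 33 of 34 WT cells at day 12. In monocytes or macrophages, which should lack the gene and were deeper, the share was 1.40% to 1.84%.

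Tnfrsf18, encoding GITR, stood at 2133 CPM in TCKO and 1261 CPM in WT regulatory T cells at day 9, and at 911 CPM in TCKO and 1365 CPM in WT at day 12. CD8 T cells lay between 160.0 and 214 CPM, below every regulatory value. The edgeR log2 fold change was 2.65 ± 0.20 (SE, adjusted p = 5.31e-05). Tnfrsf9, encoding 4-1BB, stood at 1931 CPM in TCKO and 1139 CPM in WT regulatory T cells at day 9, and at 666 CPM in TCKO and 1031 CPM in WT at day 12. Its CD8 values were 135 CPM in TCKO and 388 CPM in WT at day 9 and 136 CPM in TCKO and 207 CPM in WT at day 12, again without overlap (edgeR log2 fold change 2.24 ± 0.29, SE, adjusted p = 0.00108).

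Tnfrsf1b, encoding TNF receptor 2, had 545 CPM in TCKO and 627 CPM in WT regulatory T cells at day 9, and 199 CPM in TCKO and 174 CPM in WT at day 12. CD8 T cells had 62.0 CPM in TCKO and 129 CPM in WT at day 9, and 23.8 CPM in TCKO and 37.5 CPM in WT at day 12. The 2 classes did not overlap (edgeR log2 fold change 2.37 ± 0.21, SE, adjusted p = 0.000129), though both stood lower at day 12. Icos, the inducible CD28 relative, had 533 CPM in TCKO and 472 CPM in WT regulatory T cells at day 9, and 406 CPM in TCKO and 574 CPM in WT at day 12. Its CD8 levels lay between 42.7 and 57.9 CPM, far below these, with an edgeR log2 fold change of 3.14 ± 0.21 (SE, adjusted p = 2.52e-05). All 5 calls held in each of 10 alternative fits, with a highest adjusted p of 0.0449, for Tnfrsf9. The fit with stricter gates (1 more UMI of each gate marker) used the WT libraries alone. They held 16 regulatory T cells at day 9 and 21 at day 12. The TCKO libraries then held 6 and 8, below the 10 required.

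Cd28 stood at 202 to 315 CPM in regulatory T cells and at 129 to 139.6 CPM in CD8 T cells. Its edgeR log2 fold change of 0.68 ± 0.20 (SE) had an adjusted p of 0.0602, which became 0.0237 without the WT day 9 library. Cd27 had 306 to 539 CPM in regulatory T cells and 227 to 340.4 CPM in CD8 T cells, and these ranges overlapped.

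**Figure D1:**
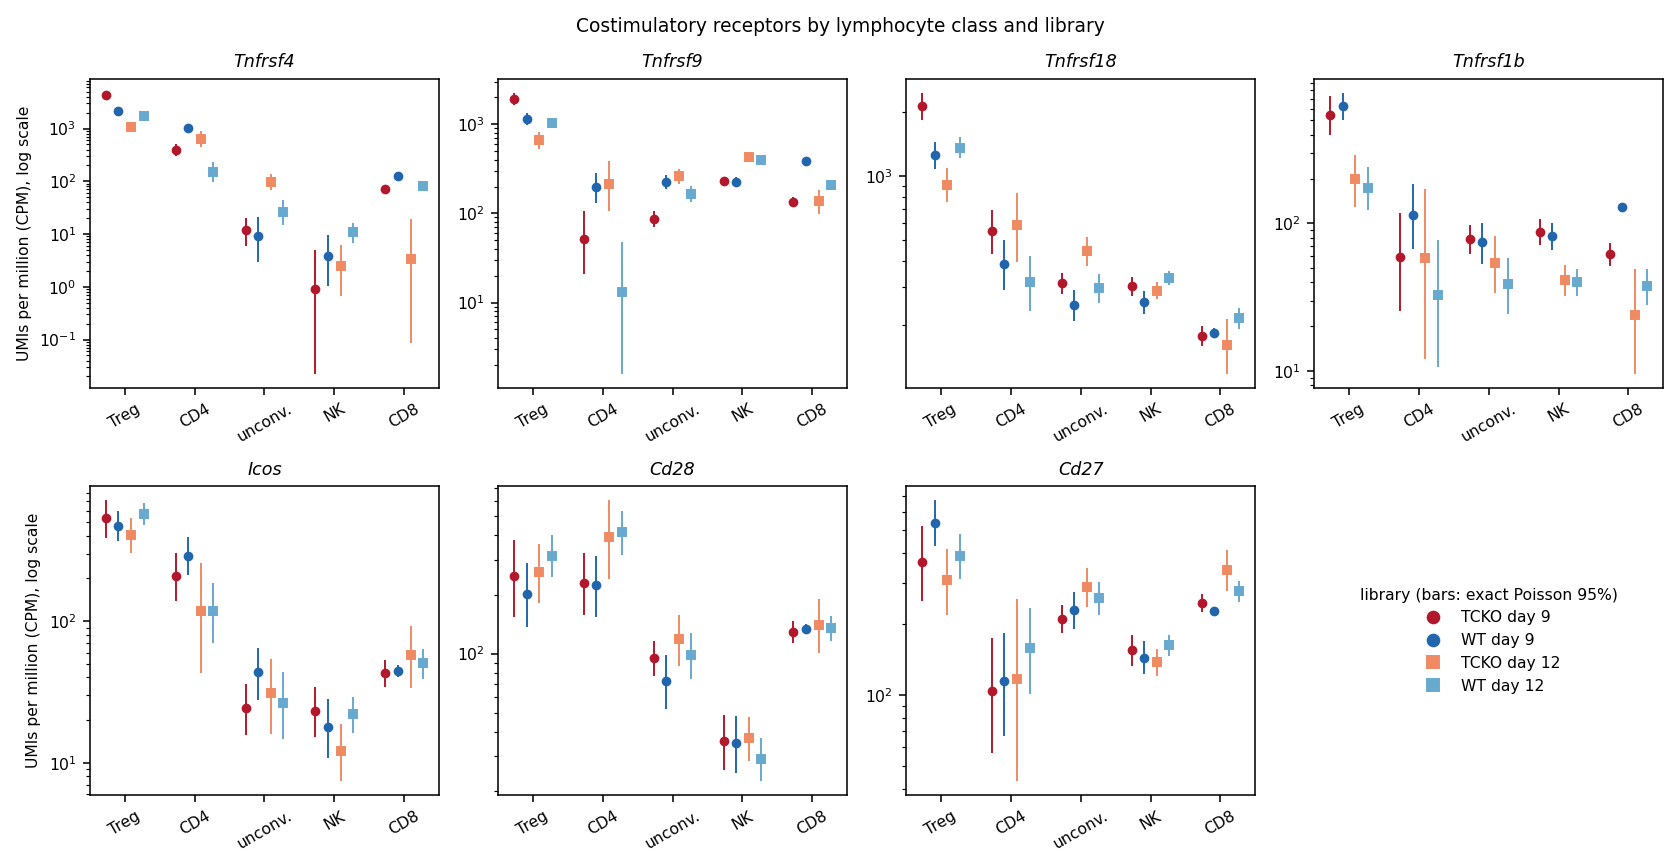
Level of each receptor gene in 5 lymphocyte classes, in CPM on a log scale, with 1 point per library (circles day 9, squares day 12, red shades TCKO, blue shades WT) and exact 95% Poisson intervals. Regulatory T cells (Treg) sit highest for Tnfrsf4, Tnfrsf9, Tnfrsf18, Tnfrsf1b and Icos, and NK cells lowest in each library for Tnfrsf4 and Cd28.

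The regulatory class also differed from conventional CD4 T cells, its nearest relative. Here 6 of 7 receptors rose, all but Cd28, against 8.17% of 2583 genes called in either direction and 3.79% called higher. The edgeR log2 fold changes (± SE, with adjusted p) were 3.44 ± 0.44 for Tnfrsf9 (0.000647), 2.43 ± 0.27 for Tnfrsf1b (0.000189) and 2.05 ± 0.37 for Tnfrsf4 (0.00442). They were 1.58 ± 0.24 for Cd27 (0.00155), 1.54 ± 0.21 for Tnfrsf18 (0.000787) and 1.32 ± 0.26 for Icos (0.00686). Tnfrsf4 lost its call in edgeR without the TCKO day 9 library (log2 fold change 1.60, adjusted p = 0.0520), and the others kept theirs in the 9 alternative fits. Cd28 was the exception, at 249 CPM in TCKO and 202 CPM in WT regulatory T cells at day 9, against 230.2 CPM in TCKO and 223 CPM in WT conventional CD4 T cells. At day 12 it had 260.4 CPM in TCKO and 315 CPM in WT regulatory T cells, against 391 CPM in TCKO and 414 CPM in WT conventional CD4 T cells, and the edgeR log2 fold change was -0.38 ± 0.20 (SE, adjusted p = 0.314).

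Conventional CD4 T cells in turn exceeded CD8 T cells in 4 receptors, Tnfrsf4, Icos, Tnfrsf18 and Cd28, and stood below them in 1, Cd27, against 6.35% of 3305 genes called, 2.45% higher and 3.9% lower. Icos had 208 CPM in TCKO and 290.4 CPM in WT conventional CD4 T cells at day 9, and 117 CPM in TCKO and 118 CPM in WT at day 12. All lay above the highest CD8 level of 57.9 CPM (edgeR log2 fold change 1.91 ± 0.29, SE, adjusted p = 0.00283). Tnfrsf4 varied more, with 394 CPM in TCKO and 1013 CPM in WT at day 9 and 646 CPM in TCKO and 151 CPM in WT at day 12 (edgeR log2 fold change 2.59 ± 0.45, SE, adjusted p = 0.00526, and 0.0527 in DESeq2). In WT day 9, 79 of its 150 UMIs came from 1 cell. Over 9 alternative fits, its log2 fold change ranged from 1.296 to 3.148. Tnfrsf18 rose by 1.11 ± 0.20 (SE, edgeR adjusted p = 0.00532) and Cd28 by 1.03 ± 0.21 (SE, edgeR adjusted p = 0.0118) on the log2 scale. The Cd28 call was lost without the WT day 12 library (edgeR log2 fold change 0.80, adjusted p = 0.147). Regulatory T cells were gated on at least 1 Foxp3 UMI, so such cells without a captured Foxp3 UMI could fall into the conventional class. Their part in the levels of the conventional CD4 class was not tested.

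Cd27 ran the other way. It had 104 CPM in TCKO and 115 CPM in WT conventional CD4 T cells at day 9, and 117 CPM in TCKO and 158 CPM in WT at day 12, below all CD8 values of 227 to 340.4 CPM (edgeR log2 fold change -1.21 ± 0.22, SE, adjusted p = 0.00580). The conventional CD4 class rests on 14 to 34 cells per library. For Tnfrsf9 and Tnfrsf1b, edgeR made no call between these classes, with log2 fold changes of -1.30 ± 0.40 (SE, adjusted p = 0.0775) and -0.12 ± 0.27 (SE, adjusted p = 0.844). The Tnfrsf9 difference passed the edgeR test without the TCKO day 12 library (log2 fold change -1.77, adjusted p = 0.00766), with no filter on low counts (-1.49, adjusted p = 3.83e-06) and with classes from clusters (-2.30, adjusted p = 0.00161).

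**Figure D2:**
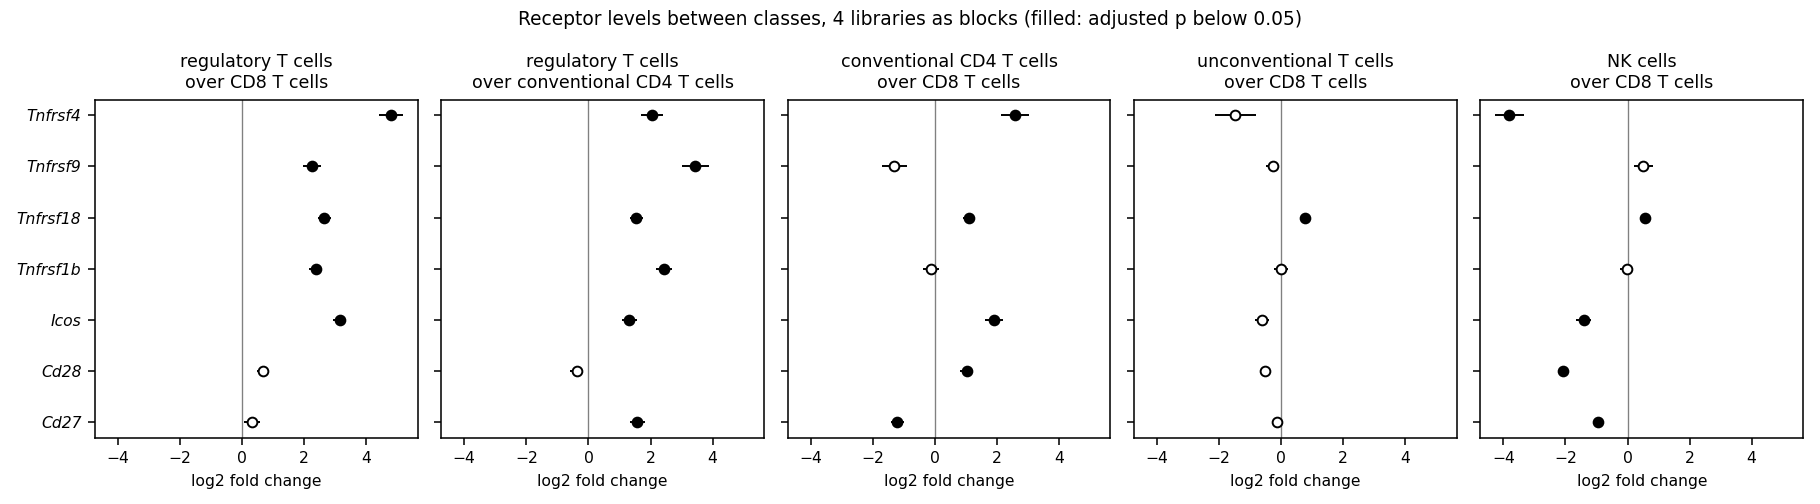
Log2 fold change of each receptor gene between classes (points, with SE bars) from the edgeR fit with the 4 libraries as blocks. Filled points passed the test at an adjusted p below 0.05, as 5 of 7 did for regulatory over CD8 T cells and 6 of 7 for regulatory over conventional CD4 T cells.

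NK cells and unconventional T cells, gated as T cells with no UMI of Cd4, Cd8b1 or Foxp3 and with NK-associated transcripts, carried more Tnfrsf18 than the CD8 class as a whole. In NK cells relative to CD8 T cells, 1 receptor rose (Tnfrsf18) and 4 fell (Tnfrsf4, Cd28, Icos and Cd27), against 8.87% of 8545 genes called, 5.44% higher and 3.43% lower. Tnfrsf4 had 0.896 CPM in TCKO and 3.77 CPM in WT NK cells at day 9, and 2.43 CPM in TCKO and 10.7 CPM in WT at day 12. These rest on 1, 4, 4 and 24 UMIs, and 15 of the 24 came from 1 cell. The edgeR log2 fold change was -3.81 ± 0.46 (SE, adjusted p = 0.000607), and the shares of NK cells with a UMI, 0.431% to 2.37%, were near those of macrophages.

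Cd28 had 35.8 CPM in TCKO and 34.8 CPM in WT NK cells at day 9, and 37.1 CPM in TCKO and 29.0 CPM in WT at day 12. All 4 lay below the CD8 range of 129 to 139.6 CPM (edgeR log2 fold change -2.08 ± 0.16, SE, adjusted p = 2.94e-05). Icos fell by 1.41 ± 0.23 (SE, edgeR adjusted p = 0.00396) and Cd27 by 0.94 ± 0.17 (SE, edgeR adjusted p = 0.00570) on the log2 scale. Cd27 stayed well above the macrophage level, at 155 CPM in TCKO and 144 CPM in WT at day 9 and 138 CPM in TCKO and 162 CPM in WT at day 12, against 2.46 to 4.36 CPM in macrophages. Tnfrsf9 was not called (edgeR log2 fold change 0.51 ± 0.31, SE, adjusted p = 0.386), but rose without the WT day 9 library (edgeR log2 fold change 0.94, adjusted p = 0.00302).

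Tnfrsf18 had 303 CPM in TCKO and 254 CPM in WT NK cells at day 9, and 289 CPM in TCKO and 332 CPM in WT at day 12. In unconventional T cells it had 312 CPM in TCKO and 247 CPM in WT at day 9, and 443 CPM in TCKO and 296 CPM in WT at day 12. Both classes lay above the CD8 range of 160.0 to 214 CPM in all libraries. That range is for the whole CD8 class, whose states, described below, differed in Tnfrsf18. The edgeR log2 fold change was 0.58 ± 0.13 (SE, adjusted p = 0.0253) for NK cells and 0.75 ± 0.15 (SE, adjusted p = 0.0230) for unconventional T cells. Each call was lost in edgeR without the TCKO day 9 library (adjusted p = 0.174 and 0.155) and without the WT day 12 library (adjusted p = 0.219 and 0.106), and the NK call also with classes from clusters (adjusted p = 0.0609). In unconventional T cells it was the 1 receptor called of 7, against 3.03% of 6836 genes called in either direction and 1.57% called higher. Tnfrsf4 passed the edgeR test there without the TCKO day 12 library (log2 fold change -2.52, adjusted p = 0.000868), and Icos without the WT day 9 library (log2 fold change -0.92, adjusted p = 0.0416). With classes from clusters, edgeR also called Tnfrsf4 (log2 fold change -2.61, adjusted p = 0.00215), Tnfrsf9 (-1.57, adjusted p = 0.000176) and Cd28 (-0.47, adjusted p = 0.0413) lower. With no filter it called Tnfrsf4 (-1.52, adjusted p = 4.08e-09) and Cd28 (-0.57, adjusted p = 0.0314) lower.

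Across the classes, the order of levels thus differed by gene. For Tnfrsf4 it ran regulatory, conventional CD4, CD8, unconventional and NK cells, and the ranges over libraries overlapped between CD8 and unconventional and between unconventional and NK cells. For Icos the order was the same, with overlap between CD8 and unconventional T cells. Cd28 ran conventional CD4, regulatory, CD8, unconventional and NK, with overlap between the first 2 classes. Cd27 ran regulatory, CD8, unconventional, NK and conventional CD4, and here unconventional and NK cells were the single pair of neighbours without overlap. For Tnfrsf9 and Tnfrsf1b, regulatory T cells stood apart and the other 4 classes overlapped with their neighbours. For Tnfrsf18, regulatory T cells stood apart at the top and CD8 T cells at the bottom.

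Several receptors were found in the same regulatory T cell. A cell with UMIs of 4 or more of the 7 genes made up 85.7% of 14 TCKO and all 22 WT regulatory T cells at day 9, and 81.2% of 16 TCKO and 94.1% of 34 WT cells at day 12. In CD8 T cells the share was 15.4% in TCKO and 72.0% in WT at day 9, and 17.0% in TCKO and 22.3% in WT at day 12. The regulatory cells had medians of 4649 to 7317.5 UMIs, less than the WT day 9 CD8 cells, whose depth moves with their high share.

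The TCKO and WT CD8 classes held different cell states, which were gated on other genes. Naive-like cells had at least 3 UMIs of naive cell genes, under 3 of cycling genes and no Pdcd1 UMI. Cycling cells had at least 3 UMIs of cycling genes, and PD-1 positive cells at least 1 Pdcd1 UMI. Such counts depend on depth, which at day 9 had a median of 4912 UMIs in TCKO and 11911 in WT. The shares were not thinned, so the part of depth in them was not tested. Naive-like cells made up 78.0% of TCKO and 11.6% of WT CD8 T cells at day 9 (exact 95% binomial intervals 73.2% to 82.4% and 9.20% to 14.3%), and 84.9% of TCKO and 40.5% of WT at day 12. Cycling cells made up 4.82% of TCKO and 44.7% of WT at day 9, and 3 of 53 in TCKO and 44 of 220 in WT at day 12. PD-1 positive, non-cycling cells made up 10.2% of TCKO and 39.6% of WT at day 9, and 3.77% of TCKO and 28.2% of WT at day 12. A sum over the class cannot tell fewer cells of a state from less RNA per cell, so the levels are also given within states.

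Tnfrsf4 and Tnfrsf9 were low in naive-like CD8 T cells and high in cycling and PD-1 positive cells. At day 9, Tnfrsf9 had 14.3 CPM in TCKO and 86.3 CPM in WT naive-like cells, 445 CPM in TCKO and 409 CPM in WT cycling cells, and 458 CPM in TCKO and 414 CPM in WT PD-1 positive cells. Tnfrsf4 had 6.02 CPM in TCKO and 26.7 CPM in WT naive-like cells, 187 CPM in TCKO and 118 CPM in WT cycling cells, and 258 CPM in TCKO and 165 CPM in WT PD-1 positive cells. So the activated states of both genotypes carried these receptors, while the naive-like state of both genotypes held less of them. Tnfrsf18 at day 9 had 117 CPM in TCKO and 129 CPM in WT naive-like cells. It had 259 CPM in TCKO and 163 CPM in WT cycling cells, and 352 CPM in TCKO and 239 CPM in WT PD-1 positive cells. WT PD-1 positive cells had 324 CPM at day 12. These PD-1 positive values overlapped the Tnfrsf18 ranges of NK and unconventional T cells.

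Within the activated states at day 9, Tnfrsf9 differed between genotypes by less than the counting error, with TCKO over WT ratios of 1.09 (0.903 to 1.31) in cycling and 1.11 (0.906 to 1.34) in PD-1 positive cells. The intervals are exact 95% intervals for counting error and do not cover differences between mice or pools. Tnfrsf4 stood at 1.59 times WT (1.17 to 2.10) in cycling and 1.56 times (1.19 to 2.03) in PD-1 positive cells. Of its 52 UMIs in TCKO cycling cells, 20 came from 1 of 16 cells, and without the top cell of each genotype the ratio was 1.14 (0.773 to 1.63) in cycling and 1.39 (1.02 to 1.85) in PD-1 positive cells. A UMI of Tnfrsf4 was found in 56.2% of TCKO and 61.7% of WT cycling cells. Tnfrsf18 stood at 1.58 times WT (1.23 to 2.01) in cycling and 1.48 times (1.17 to 1.84) in PD-1 positive cells, and without the top cells at 1.44 times (1.09 to 1.88) and 1.26 times (0.975 to 1.62). Icos stood at 1.85 times WT (1.08 to 2.998) in cycling cells, and at 1.69 times (0.926 to 2.85) without the top cells. In PD-1 positive cells Icos stood at 0.809 times (0.422 to 1.42), and at 0.660 times (0.310 to 1.25) without the top cells. Cd28 stood at 1.00 times WT (0.689 to 1.41) in cycling and 1.39 times (1.04 to 1.83) in PD-1 positive cells. Without the top cells its ratios were 0.759 (0.483 to 1.14) and 1.33 (0.983 to 1.78). Tnfrsf1b stood at 1.01 times WT (0.687 to 1.44) in cycling cells, 0.666 times (0.444 to 0.965) in PD-1 positive cells and 0.520 times (0.337 to 0.810) in naive-like cells. In naive-like cells at day 9, Tnfrsf9 stood at 0.166 times WT (0.0910 to 0.291) and Tnfrsf4 at 0.225 times (0.0809 to 0.586). These rest on 19 TCKO and 42 WT UMIs of Tnfrsf9 and on 8 TCKO and 13 WT UMIs of Tnfrsf4, and without the top cells the ratios were 0.192 (0.0954 to 0.372) and 0.504 (0.138 to 2.01). The TCKO states held 16 cycling and 34 PD-1 positive cells, against 290 and 257 in WT.

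Cd28 and Cd27 changed less with state. At day 9, Cd28 had 108 CPM in TCKO and 115 CPM in WT naive-like cells, 122 CPM in TCKO and 122 CPM in WT cycling cells, and 231 CPM in TCKO and 166 CPM in WT PD-1 positive cells. Cd27 had 248 CPM in TCKO and 208 CPM in WT naive-like cells, 205 CPM in TCKO and 194 CPM in WT cycling cells, and 321 CPM in TCKO and 309 CPM in WT PD-1 positive cells. At day 12 the TCKO library held 3 cycling and 2 PD-1 positive CD8 T cells, too few to describe. The naive-like state held 45 TCKO and 89 WT cells at day 12. There the TCKO over WT ratio was 1.47 (0.495 to 4.30) for Tnfrsf9 and 0.921 (0.24 to 3.06) for Tnfrsf1b, and both intervals included 1. These rest on 8 TCKO and 9 WT UMIs of Tnfrsf9, the 9 from 1 cell, and on 5 TCKO and 9 WT UMIs of Tnfrsf1b. Tnfrsf4 had 0 TCKO and 2 WT UMIs.

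**Figure D3:**
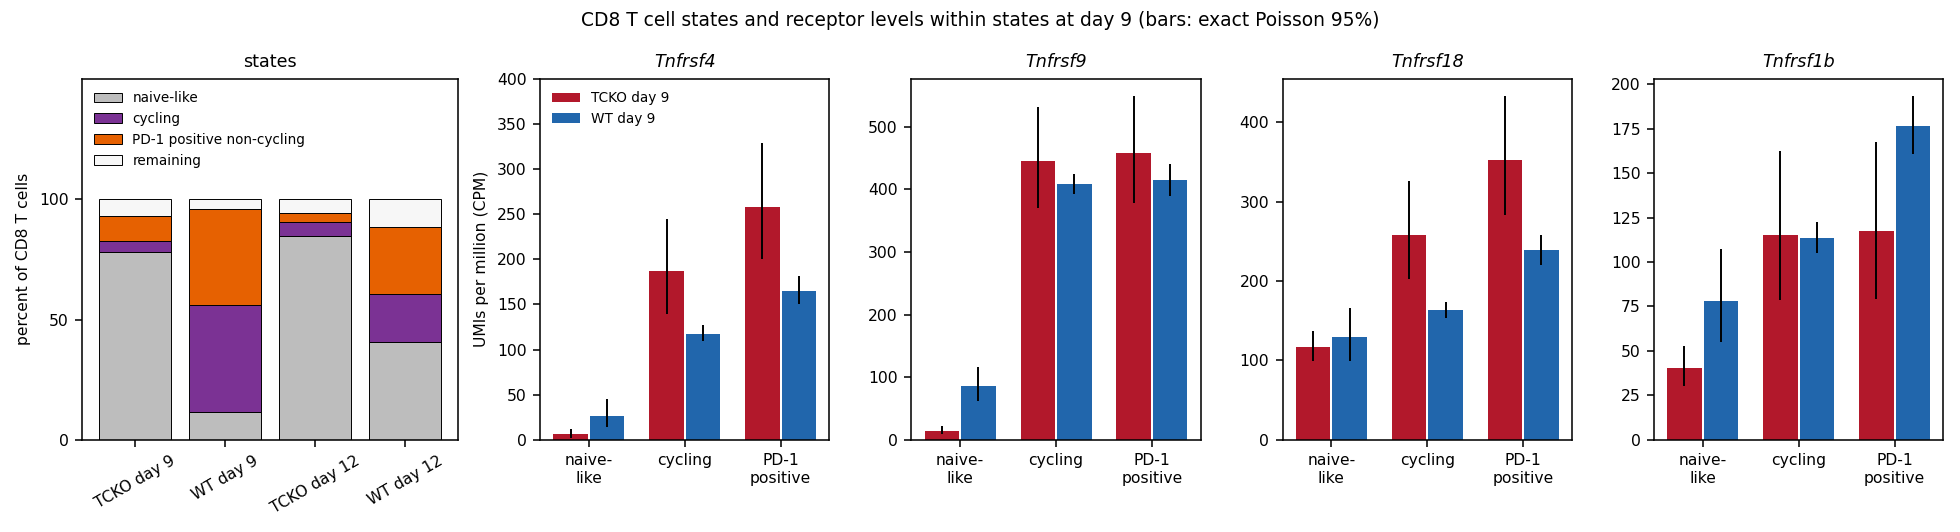
Left, percent of CD8 T cells in each state by library. Right, CPM of 4 receptor genes within states at day 9 in TCKO (red) and WT (blue), with exact 95% Poisson intervals. Tnfrsf4 and Tnfrsf9 are low in naive-like cells of both genotypes, and naive-like cells are 78.0% of TCKO but 11.6% of WT CD8 T cells at day 9.

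Over the whole CD8 class, no receptor passed the test of a genotype effect common to both days (edgeR on the 4 class sums with day as a covariate, 1 residual degree of freedom). That is 0 of 7, against 5.03% of 7973 genes called in either direction. At an unadjusted p under 0.05 there were 3 of 7, against 1720 of 7973 genes (21.6%), and DESeq2 called 0 of 7 and 160 of 7973 genes. The 3 were Tnfrsf9, with 135 CPM in TCKO and 388 CPM in WT at day 9 and 136 CPM in TCKO and 207 CPM in WT at day 12, Tnfrsf1b and Tnfrsf4. Their edgeR log2 fold changes were -0.99 ± 0.25 for Tnfrsf9 (SE, adjusted p = 0.0688), -0.82 ± 0.21 for Tnfrsf1b (SE, adjusted p = 0.0802) and -1.08 ± 0.43 for Tnfrsf4 (SE, adjusted p = 0.203). The TCKO values were below the WT values of the same day for all 3. At day 12 they rest on 1 TCKO and 113 WT UMIs of Tnfrsf4 and on 7 TCKO and 53 WT UMIs of Tnfrsf1b.

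These calls turned on the processing. With no filter on low counts, edgeR called all 3 lower (adjusted p = 0.000296 for Tnfrsf9, 0.0191 for Tnfrsf1b and 0.000316 for Tnfrsf4). With classes taken from clusters in place of gates, edgeR called Tnfrsf9 (adjusted p = 0.00982) and Tnfrsf1b (adjusted p = 0.0178) lower, and the Tnfrsf4 log2 fold change became 0.043. In TCKO day 12, 32 of the 40 Tnfrsf9 UMIs in CD8 T cells came from 1 cell, and the day 12 ratio of 0.657 (0.460 to 0.916) became 0.160 (0.0682 to 0.319) without the top cell of each library. The other 4 receptors had edgeR log2 fold changes between -0.05 and 0.36.

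The share of CD8 T cells with a UMI was lower in TCKO at day 9 for all 7 receptors, in cells that were also less deep. After each cell was thinned to 2000 UMIs, the share was 5.42% in TCKO and 33.4% in WT for Tnfrsf9, 4.52% in TCKO and 16.6% in WT for Tnfrsf4, and 8.73% in TCKO and 21.1% in WT for Tnfrsf1b, and the exact binomial intervals stayed apart. For Tnfrsf18, Icos, Cd28 and Cd27 the thinned intervals overlapped. Icos turned round, with 19.6% in TCKO and 38.4% in WT at full depth and 10.8% in TCKO and 9.55% in WT after thinning.

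In unconventional T cells and in NK cells, too, edgeR called 0 receptors for genotype, of 7 and of 6 tested, against 0.39% of 5131 and 0.38% of 7627 genes. At an unadjusted p under 0.05, Tnfrsf4 in unconventional T cells was the 1 receptor below it, against 4.68% of all genes there and 6.08% in NK cells, and DESeq2 called 0 in both classes. The NK levels of Tnfrsf9 were close at both days, at 229 CPM in TCKO and 223 CPM in WT at day 9 and 432 CPM in TCKO and 401 CPM in WT at day 12. Their TCKO over WT ratio was 1.03 (0.858 to 1.23) at day 9 and 1.08 (0.975 to 1.19) at day 12. Over the whole CD8 class Cd28 was as close. It had 129 CPM in TCKO and 134 CPM in WT at day 9, and 139.6 CPM in TCKO and 135 CPM in WT at day 12. Its ratio was 0.967 (0.841 to 1.11) at day 9 and 1.04 (0.722 to 1.46) at day 12.

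Regulatory T cells had too few cells in each library for this test, and their genotype ratios differed by day. At day 9 the TCKO level was 1.96 times WT (1.68 to 2.28) for Tnfrsf4, 1.70 times (1.36 to 2.11) for Tnfrsf9 and 1.69 times (1.37 to 2.09) for Tnfrsf18. At day 12 it was 0.644 times WT (0.526 to 0.784), 0.646 times (0.498 to 0.832) and 0.668 times (0.535 to 0.829) in the same order. The 3 genes that were higher in TCKO at day 9 were thus lower at day 12. These values rest on 14 TCKO and 22 WT cells at day 9 and on 16 TCKO and 34 WT cells at day 12. With 1 more UMI required of each gate marker, the day 12 ratios were 1.06 for Tnfrsf4, 0.949 for Tnfrsf9 and 1.06 for Tnfrsf18. The day 9 ratios were then 2.79 for Tnfrsf4, 2.49 for Tnfrsf9 and 2.04 for Tnfrsf18. Under these gates 6 TCKO and 16 WT cells were left at day 9 and 8 TCKO and 21 WT cells at day 12. Icos, Cd28, Cd27 and Tnfrsf1b had day 9 ratios of 1.13, 1.23, 0.681 and 0.869, whose intervals all included 1. At day 12 the Icos ratio was 0.707 (0.502 to 0.983).

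**Figure D4:**
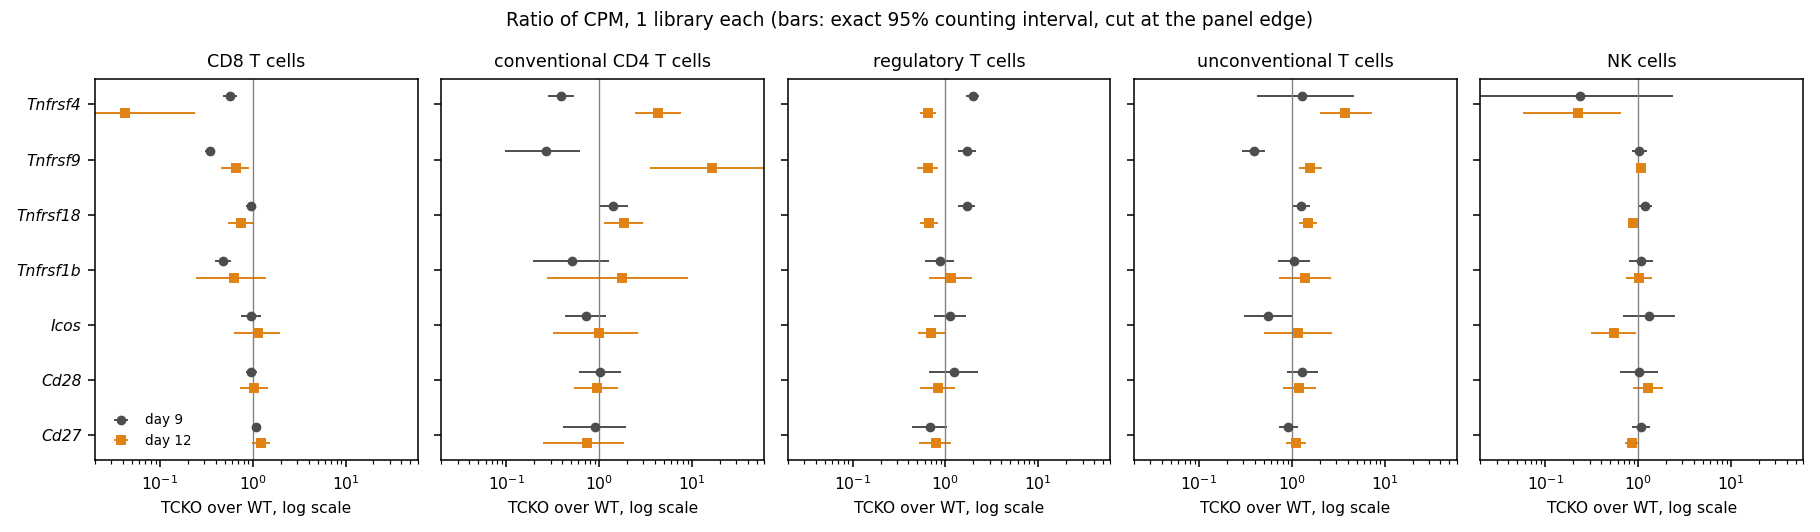
Ratio of TCKO over WT levels (log scale) for each receptor gene and class at day 9 (grey circles) and day 12 (orange squares), with exact 95% counting intervals from 1 library on each side. In CD8 T cells Tnfrsf4, Tnfrsf9 and Tnfrsf1b lie left of 1. At day 12 the CD8 points rest on 1 TCKO UMI of Tnfrsf4 and 7 of Tnfrsf1b. With classes from clusters the CD8 ratio of Tnfrsf4 was 0.939 at day 9 and 0.923 at day 12. In regulatory T cells Tnfrsf4, Tnfrsf9 and Tnfrsf18 lie right of 1 at day 9 and left of it at day 12.

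Tnfrsf1b stood lower at day 12 than at day 9 in CD8, regulatory, unconventional and NK cells and in macrophages of both genotypes. In TCKO unconventional T cells the interval of the day 12 over day 9 ratio included 1 (0.693, 0.407 to 1.13). The day effect was not called in that class (edgeR log2 fold change -0.81 ± 0.32, SE, adjusted p = 0.258). Conventional CD4 T cells had 58.7 CPM in TCKO and 32.9 CPM in WT at day 12, against 59.4 CPM in TCKO and 115 CPM in WT at day 9. The TCKO values rest on 3 and 8 UMIs. In NK cells Tnfrsf1b had 41.3 CPM in TCKO and 40.2 CPM in WT at day 12, against 87.8 CPM in TCKO and 81.9 CPM in WT at day 9. The fall passed the edgeR test of a day effect common to both genotypes (log2 fold change -1.05 ± 0.20, SE, adjusted p = 2.18e-05). In CD8 T cells the edgeR log2 fold change was -1.66 ± 0.23 (SE, adjusted p = 0.0725), in a class where 0 of 7973 genes were called for day (0%) and 753 (9.44%) had an unadjusted p under 0.05. DESeq2 called 16 genes there, and none of the 7. EdgeR called Tnfrsf1b lower at day 12 with no filter on low counts (log2 fold change -1.71, adjusted p = 2.12e-07) and with classes from clusters (log2 fold change -1.88, adjusted p = 0.000788), and Tnfrsf4 lower with no filter (log2 fold change -1.15, adjusted p = 0.00163). In monocytes or macrophages, which use TNF receptor 2 as well, the level was 99.2 CPM in TCKO and 94.7 CPM in WT at day 12, against 215 CPM in TCKO and 275 CPM in WT at day 9. The day 12 over day 9 ratio in regulatory T cells was 0.365 (0.217 to 0.603) in TCKO and 0.278 (0.184 to 0.411) in WT. Mature and type 2 conventional dendritic cells had ratios below 1 in both genotypes. Plasmacytoid dendritic cells had ratios of 2.36 (1.06 to 4.74) in TCKO and 0.120 (0.00281 to 0.796) in WT. In type 1 conventional dendritic cells the ratio was 0.383 (0.134 to 1.05) in TCKO and 1.08 (0.410 to 3.18) in WT.

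Tnfrsf9 moved the other way in NK cells. It had 432 CPM in TCKO and 401 CPM in WT at day 12, against 229 CPM in TCKO and 223 CPM in WT at day 9 (edgeR log2 fold change 0.88 ± 0.17, SE, adjusted p = 2.77e-05). NK cells with a UMI of it were 61.0% in TCKO and 51.4% in WT at day 12, against 41.8% in TCKO and 52.1% in WT at day 9. Of 6 receptors tested in NK cells, these 2 were called, against 8.89% of 7627 genes. Neither passed in DESeq2 (adjusted p = 0.144 for Tnfrsf9 and 0.465 for Tnfrsf1b), and both passed in the 5 other alternatives. The NK fit had infinite prior degrees of freedom, which means that all genes shared 1 estimate of the spread around the trend.

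In unconventional T cells, 1 of 7 receptors was called for day, against 1.95% of 5131 genes. Tnfrsf4 had 97.9 CPM in TCKO and 26.3 CPM in WT at day 12, against 11.7 CPM in TCKO and 9.08 CPM in WT at day 9 (edgeR log2 fold change 2.48 ± 0.46, SE, adjusted p = 3.33e-05, and 1.00 in DESeq2). Of its 38 UMIs in TCKO day 12, 27 came from 1 cell, and 4 of 80 cells had any.

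**Figure D5:**
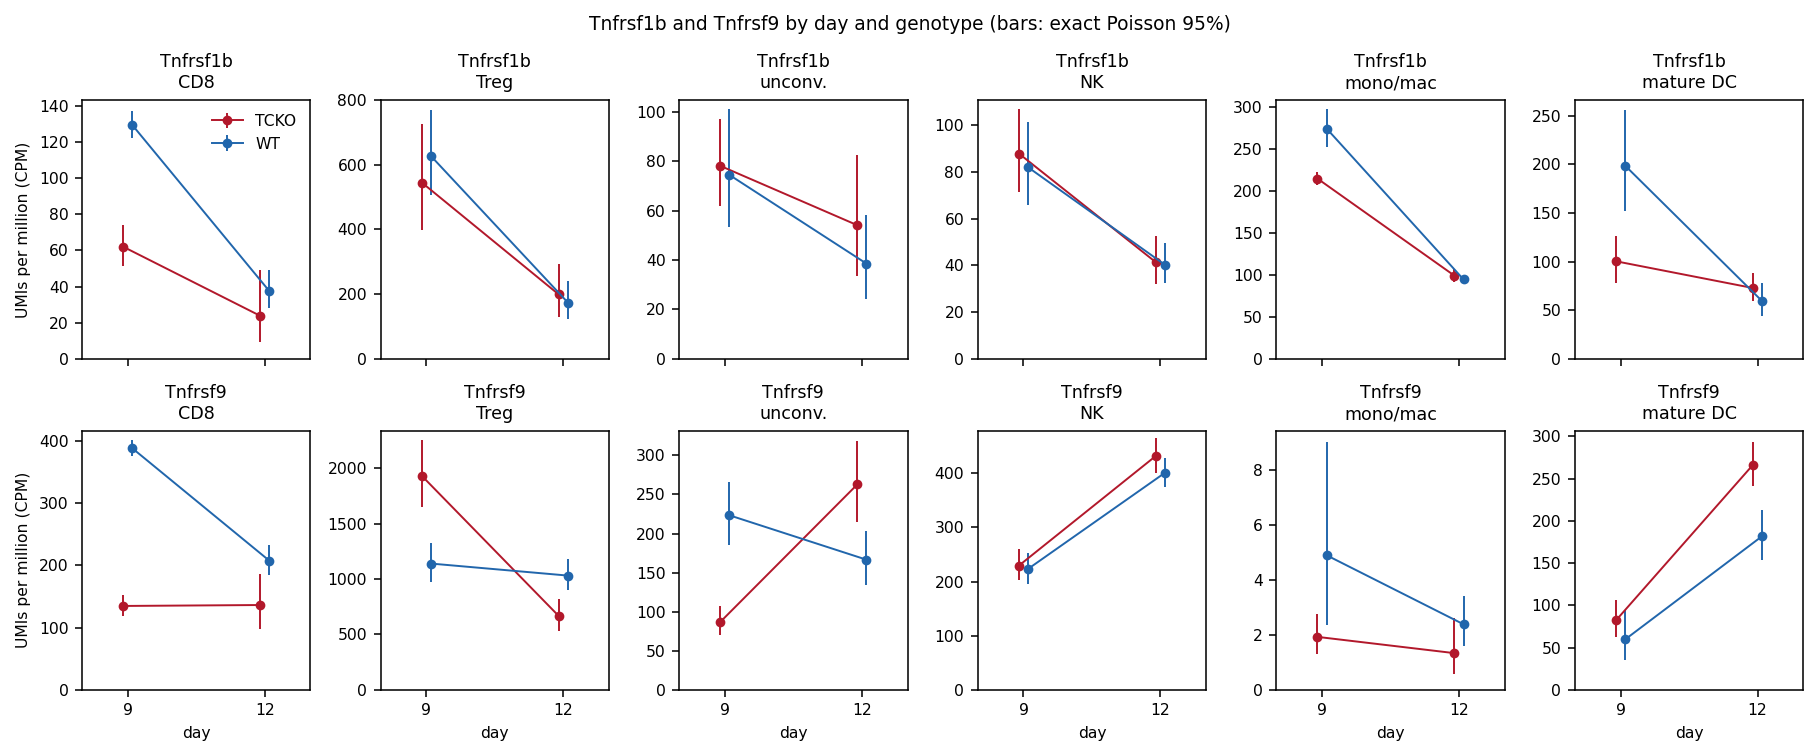
Levels of Tnfrsf1b (top) and Tnfrsf9 (bottom) in CPM at day 9 and day 12 in TCKO (red) and WT (blue) for 6 cell classes, with exact 95% Poisson intervals. Tnfrsf1b is lower at day 12 in NK cells and macrophages of both genotypes, and Tnfrsf9 is higher at day 12 in NK cells and mature dendritic cells of both genotypes.

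The genes around these receptors were counted from 4 lists. In the CD8 genotype comparison, 2 of 28 tested genes of TNF receptor and CD28 signalling rose in TCKO and 1 fell. Of all 7973 genes tested there, edgeR called 183 higher and 218 lower. Bcl2, an anti-apoptotic gene, rose by 2.14 ± 0.45 (SE, edgeR adjusted p = 0.0420) and Relb, an NF-kB subunit, by 1.43 ± 0.22 (SE, edgeR adjusted p = 0.0204) on the log2 scale. Siva1, whose product binds CD27, fell by 1.39 ± 0.25 (SE, edgeR adjusted p = 0.0276). Of 10 activation genes, Cd69, Nr4a1 and Myc rose and Batf fell, with edgeR log2 fold changes of 1.58, 1.58 and 1.14 and of -1.02. The classes compared differed in state, with 78.0% naive-like cells in TCKO and 11.6% in WT at day 9. The part of state in these calls was not tested, and the number of genes called changed with the processing, as given below. Of 7 other receptors and 4 ligands tested, 0 were called by edgeR, against 5.03% of all genes, and at an unadjusted p under 0.05, where 21.6% of all genes lay, the ligands held 1 (Tnf) and the other receptors 4 (Ctla4, Tnfrsf25, Btla and Cd226), which were named after their values were seen, as was Batf.

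In regulatory relative to CD8 T cells, where 8.71% of all genes were called, genes of the same lists were called in part. Of 3 other receptors tested, Ctla4, the inhibitory relative of CD28, rose by 4.32 and Cd2 by 1.36 on the log2 scale, and Cd226 had a log2 fold change of -2.37. Of 6 activation genes, Il2ra, the high-affinity chain of the IL-2 receptor, rose by 3.61 and Batf by 1.15. Of 22 signalling genes, Traf1 rose by 1.07, and Bcl2 and Pik3cd had log2 fold changes of -2.83 and -1.46 (edgeR adjusted p from 1.68e-05 to 0.0302 for these). In NK cells relative to CD8 T cells, 4 of 29 signalling genes rose, led by Pik3r1 (1.32) and Birc3 (1.13), and 4 fell, led by Traf4 (-1.28), against 5.44% of all genes called higher and 3.43% lower. Slamf1, Btla and Ctla4 fell among the 7 other receptors, with log2 fold changes of -5.70, -3.81 and -2.39.

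Over the 17 class sums with at least 20 cells, the pattern of Cd28 was most like those of Kcnn4 (Pearson r = 0.97), Cd5 (0.97) and Lat (0.96), among 6852 genes compared on log2 of CPM + 5. Icos was most like Arhgap31 (0.96), Mif4gd (0.95) and Sdcbp2 (0.95). Tnfrsf4 was most like Ube2l6, Sdcbp2 and Batf (0.93 each), and Tnfrsf18 most like Cd2 (0.93), Snx2 (0.92) and Pim1 (0.91). For Tnfrsf1b the nearest were Sh3bgrl (0.88), Anxa11 (0.88) and Sema4d (0.87), for Tnfrsf9 Serhl (0.89), Rprd1b (0.87) and Gabpa (0.86), and for Cd27 Fcf1 (0.84), Dstn (0.83) and Cluap1 (0.80). Among the receptors themselves, Tnfrsf4 and Icos were most alike (0.91) and Tnfrsf9 and Cd28 least (-0.26). The sums share 4 libraries, and classes of different depth, so these values are a description. The limit on cells left out the TCKO regulatory sums of day 9 (14 cells) and day 12 (16 cells). It also left out the TCKO day 12 conventional CD4 sum (14 cells). Regulatory T cells thus entered from the WT libraries alone.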

How the data were processed

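Single immune cells of 4 droplet libraries (10x 3′ chemistry), 1 per genotype and day, were measured. The authors deposited raw UMI counts of each gene in each barcode, produced with Cell Ranger 2.0.2 on mm10, per the submitters' processing notes. Cells with at least 200 genes, at most 10% mitochondrial and at most 5% haemoglobin UMIs were kept, and the cells with the highest Scrublet scores (25 to 112 per library) were removed as doublets in scanpy 1.11.5, since Scrublet's own cutoff marked 1 to 25 cells per library. Classes were gated per cell on marker UMIs. T cells had at least 4 UMIs of Cd3d, Cd3e and Cd3g, and the markers of other cell types were limited. Gate thresholds were set after the data had been seen, and the receptors and gene lists were chosen with earlier results of these data known.

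The UMIs of a class were added up within each library and tested with edgeR 4.0.16 (R 4.3.3; TMM scaling, filterByExpr, quasi-likelihood test, Benjamini-Hochberg adjustment over all genes tested, called below 0.05). Genotype and day effects came from 1 additive model over 4 libraries (1 residual degree of freedom), where each library had at least 50 cells of the class. Class comparisons used the library as a block (3 residual degrees of freedom), with at least 10 cells per sum. No group has a second library, so the residual spread in these fits is how far an effect varied over days, genotypes or libraries. Its estimate was shared in part across genes. Such p-values do not measure the spread between mice or between like libraries. Library totals were 33902064 UMIs in TCKO day 9, 21448114 in WT day 9, 18783490 in TCKO day 12 and 29662903 in WT day 12. Levels are CPM of the class sum and are compared within a gene. All intervals (exact Poisson, Clopper-Pearson, or exact conditional for ratios, 95%) cover counting error only. The scripts were tested on simulated data. Beside the 7 receptors, genes of the 4 lists were named where they were called, had at least 50 UMIs and were among the 3 largest changes. Alternatives were median-of-ratios scaling, no filter, DESeq2 1.42.0, stricter gates, Leiden clusters, no doublet removal, a 5% mitochondrial limit, thinning to 2000 UMIs, and leaving out libraries or, chosen after seeing the data, the top cell of each gene (by class or CD8 state).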

Additional observations from a re-analysis of the deposited data

Results flagged for a closer look

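For 7 pairs of values, the TCKO over WT ratio lay above 1 at one day and below 1 at the other, with both counting intervals leaving out 1. Each ratio compares 1 library with 1 library, and the difference between days was not tested.

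In regulatory T cells this held for 3 receptors. The ratio was 1.96 at day 9 and 0.644 at day 12 for Tnfrsf4, 1.70 at day 9 and 0.646 at day 12 for Tnfrsf9, and 1.69 at day 9 and 0.668 at day 12 for Tnfrsf18. With classes from clusters the day 12 ratios were 0.909, 1.02 and 0.933 in the same order, and their intervals included 1.

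In conventional CD4 T cells the ratio of Tnfrsf4 was 0.389 at day 9 and 4.27 at day 12. Without the top cell of each library it was 0.597 at day 9 and 2.93 at day 12. With stricter gates it was 3.34 at day 9, from 9 TCKO and 8 WT cells. The ratio of Tnfrsf9 in these cells was 0.265 at day 9 and 16.4 at day 12, the last from 11 UMIs in TCKO and 2 in WT. In unconventional T cells Tnfrsf9 had a ratio of 0.389 at day 9 and 1.58 at day 12, and with classes from clusters 0.737 and 1.14, whose intervals included 1. In NK cells the ratio of Tnfrsf18 was 1.19 at day 9 and 0.871 at day 12, and 1.44 and 0.880 with classes from clusters.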

How the results depend on the processing

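Genotype and day effects could not be paired because each genotype and day has 1 library and no replicate numbers are shared. Class comparisons were paired within libraries, with the library as a block. The cause of the changes below was not tested.

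Counts of called genes moved by over 1.5 times as follows. For genotype in CD8 T cells, 401 became 973 with no filter on low counts, 160 in DESeq2 and 849 with clusters, and for day in CD8 T cells 0 became 229, 16 and 118. For genotype in unconventional T cells, 20 became 13 with median-of-ratios scaling, 2 in DESeq2 and 9 with clusters, and for day 100 became 54 with median-of-ratios scaling, 0 in DESeq2 and 61 with stricter gates. For genotype in NK cells, 29 became 3 in DESeq2, 4 with stricter gates and 12 with clusters, and for day 678 became 16, 360 and 377. For regulatory over CD8 T cells, 326 became 518 with no filter, 93 with stricter gates, 180 with clusters and 97 to 430 when 1 library was left out. For regulatory over conventional CD4 T cells, 211 became 117 in DESeq2 and 91 to 161 without 1 library. For conventional CD4 over CD8 T cells, 210 became 459 with no filter, 470 with clusters and 83 to 259 without 1 library. For unconventional over CD8 T cells, 207 became 623 with no filter, 337 with stricter gates, 856 with clusters and 48 to 327 without 1 library. For NK over CD8 T cells, 758 became 1367 with no filter and 338 to 890 without 1 library.

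Of 140 member tests with 1 library left out, 4 turned sign. Of 426 member values under other settings, which include shares of cells with a UMI after thinning, 17 did. Among the 17 was the share of CD8 T cells with an Icos UMI at day 9, whose intervals stood apart at full depth. All the others were tests of receptors that had not been called. With clusters, the genotype log2 fold change was 0.043 for Tnfrsf4 and 0.12 for Tnfrsf18 in CD8 T cells, -0.012 for Tnfrsf1b and 0.036 for Cd27 in unconventional T cells, and -0.085 for Tnfrsf9 and -0.0042 for Tnfrsf1b in NK cells. With clusters, the day log2 fold change was -0.29 for Tnfrsf9 and 0.36 for Icos in unconventional T cells and -0.035 for Cd27 in NK cells, and the unconventional over CD8 value was 0.0054 for Icos and 0.056 for Cd27. With stricter gates, the genotype value in unconventional T cells was 0.048 for Icos and 0.099 for Cd27. Tnfrsf1b in unconventional over CD8 T cells was -0.015 with median-of-ratios scaling, -0.047 with no filter, -0.048 with stricter gates and -0.13 to 0.29 when 1 library was left out, and in NK over CD8 T cells it was -0.15 to 0.25 when 1 library was left out.

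Single-day ratios of TCKO over WT turned with stricter gates to 3.34 for Tnfrsf4 in conventional CD4 T cells at day 9 (9 TCKO and 8 WT cells). In regulatory T cells at day 12 they turned to 1.06 each for Tnfrsf4 and Tnfrsf18 (8 TCKO and 21 WT cells). With clusters they turned to 0.378 for Tnfrsf4 in unconventional T cells at day 12, 1.49 for Tnfrsf9 in conventional CD4 T cells at day 9, 1.02 for Tnfrsf9 in regulatory T cells at day 12 and 0.930 for Tnfrsf18 in conventional CD4 T cells at day 12. The TCKO minus WT difference in the share of CD8 T cells with an Icos UMI at day 9 was 1.29 percentage points after thinning. Stricter gates left too few cells for the CD8 genotype and day effects and for both comparisons with conventional CD4 T cells. For regulatory over CD8 T cells they left the WT libraries alone. Tnfrsf9 in conventional CD4 T cells at day 12 had 0 WT UMIs under 2 settings, so no ratio is given. Cell numbers limit the TCKO day 12 library, with 53 CD8 and 14 conventional CD4 T cells.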

Other observations

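Mature dendritic cells, gated on Fscn1, Cacnb3, Ccl22 and Il4i1, carried the induced TNF receptors as well as ligands. They held 73 TCKO and 32 WT cells at day 9 and 169 TCKO and 107 WT cells at day 12. Tnfrsf4 had 170.1 CPM in TCKO and 358 CPM in WT at day 9, and 208 CPM in TCKO and 280.5 CPM in WT at day 12, above the CD8 level of the same library in all 4. Tnfrsf9 had 82.2 CPM in TCKO and 59.6 CPM in WT at day 9, and 266 CPM in TCKO and 182 CPM in WT at day 12. Cd28, Icos and Cd27 had at most 7 UMIs in any library there.

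Cd86, a ligand of CD28, had 237 CPM in TCKO and 169 CPM in WT mature dendritic cells at day 9, and 216 CPM in TCKO and 182 CPM in WT at day 12. Cd70, the ligand of CD27, had 75.3 CPM in TCKO and 139 CPM in WT at day 9, and 93.4 CPM in TCKO and 63.0 CPM in WT at day 12. Tnfsf9, the 4-1BB ligand, had 62.7 CPM in TCKO and 23.2 CPM in WT at day 9, and 58.9 CPM in TCKO and 32.1 CPM in WT at day 12. Tnfsf18, the GITR ligand, had 0 UMIs in these cells in all 4 libraries. Each value rests on 1 library, so no difference was tested.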
